A study of Homo sapiens with 12 samples.

Results

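The S100 proteins are small calcium-binding proteins, and 10 of their genes are described here: S100A2, S100A3, S100A4, S100A6, S100A10, S100A11, S100A13, S100A14, S100A16 and S100P. They were chosen by name from the 29972 gene rows of each of 2 deposited tables, and all 10 were found in both. In these tables mRNA was measured in MDA-MB-436 and BoM-1833, established human lines of triple-negative breast cancer. BoM-1833 was selected for growth in bone. The lines are compared as separate lines, not as a parent and its derivative. In each line 1 group of cells received siPHF19, a mixture of a pair of Silencer Select siRNAs against PHF19 in equal parts, and 1 group received siNT, an ON-TARGETplus pool of non-targeting siRNAs. All cells were reverse transfected with RNAiMAX at 5 nM siRNA in total and collected after 72 h, so the controls share the transfection but not the maker or product line of the siRNA. Every group has 3 libraries. The labels do not say whether the 3 came from separate cultures, so p-values measure the spread between these libraries, which may be technical. The siRNAs were given only as a mixture, so no effect can be assigned to either of them.

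Most S100 proteins pair with a second chain and open a binding face when calcium fills their EF-hand loops. This lets them hold a target such as an annexin, a myosin chain or a receptor. S100A10 is an exception: it keeps that face exposed without calcium and sits with annexin A2 at the plasma membrane, where the complex binds plasminogen. Inside the cell S100 proteins act on the cytoskeleton, on membrane repair and on p53, and some are released and bind the receptor AGER. In breast cancer the family is best known for S100A4, which is tied to motility and metastasis. PHF19 is an accessory subunit of Polycomb repressive complex PRC2, which places a repressive methyl mark on histone H3, and the title of the series names PRC2 and the motility of these cells as its subject.

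After siPHF19, PHF19 mRNA was at 9.75% of siNT in MDA-MB-436 and at 10.9% of it in BoM-1833 by the authors' deposited table. Reads in genes ranged from 13.7 to 24.0 M per library. The receptor genes ESR1 and PGR were at a normalized count of at most 3.97 in every library, while ERBB2 had group means of 1041 to 1119.7. VIM, a mesenchymal filament gene, had group means of 18475 to 73419, and the epithelial cadherin gene CDH1 had group means of 0.363 to 13.6. Of genes for cells that should be absent, CD3E was at 0 in every library, ALB at most at 0.954, PTPRC had group means of 0 to 18.5 and PECAM1 of 18.6 to 323. None of PTPRC, PECAM1 and ERBB2 was called in a line where it was tested. Of 6 epithelial markers, 3 were tested in each line: the keratin genes KRT8 and KRT18 were called higher after siPHF19 in both, and EPCAM in neither, its log2 fold change by the authors' deposited table being 0.21 for MDA-MB-436 against -0.39 for BoM-1833. The summed normalized count of the 6 was 5822 to 6422 in MDA-MB-436 siNT and 7664 to 7885 after siPHF19, and 16057 to 17595 and 24670.1 to 25877 in BoM-1833. Of 4 mesenchymal markers, all tested, SPARC (1.54, DESeq2 adjusted p 6.72e-41) and AXL (0.29, DESeq2 adjusted p 1.28e-04) were called higher and CD44 (-0.29, DESeq2 adjusted p 2.66e-05) lower in MDA-MB-436, while in BoM-1833 the only call was VIM, lower (-0.21, DESeq2 adjusted p 0.00213). Their sum was 39302 to 41242 in MDA-MB-436 siNT against 37166 to 38218 after siPHF19, and 96048 to 102421 against 90242 to 92288 in BoM-1833. The part of these markers in the S100 results was not tested.

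Of the 10 genes, 9 lie on the minus strand of chromosome 1 (GRCh38) and S100P lies on the plus strand of chromosome 4, from 6693069 to 6697170. The chromosome 1 genes form 2 groups. S100A10 (151982915 to 151994390) and S100A11 (152032506 to 152047907) lie at one end, and S100A6 (153534599 to 153536244), S100A4 (153543613 to 153550136), S100A3 (153547329 to 153549372), S100A2 (153561108 to 153567890), S100A16 (153606886 to 153613145), S100A14 (153614255 to 153616986) and S100A13 (153618787 to 153631360) follow each other at the other. S100A3 lies inside S100A4 on the same strand, so reads there can be split between them. S100A6 and S100A11 each overlap a gene on the other strand, and S100A13 overlaps S100A1 on the other strand and AL162258.1 on its own. S100A11 has 2 named pseudogenes, and its values are uncertain to the extent that reads of these copies were assigned to it.

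The start regions of the 4 genes whose mRNA changed are shown because PRC2 is known to gather at stretches rich in CG pairs and the members differ in this respect. Each sequence is 1 window of 300 bases, 250 before to 50 after an annotated start, from RefSeq on GRCh38.p14, minus strand, 5′ to 3′, with every CG pair in capitals. The windows are chr1:151993810-151994109 (S100A10), chr1:152036955-152037254 (S100A11), chr1:153634312-153634611 (S100A13, the first of 3 starts) and chr1:153613088-153613387 (S100A16, the first of 2 starts). The S100A13 window shown lies outside the span given above, which is that of GENCODE 29, and inside CHTOP (153633982 to 153646306), a gene on the plus strand.
S100A10: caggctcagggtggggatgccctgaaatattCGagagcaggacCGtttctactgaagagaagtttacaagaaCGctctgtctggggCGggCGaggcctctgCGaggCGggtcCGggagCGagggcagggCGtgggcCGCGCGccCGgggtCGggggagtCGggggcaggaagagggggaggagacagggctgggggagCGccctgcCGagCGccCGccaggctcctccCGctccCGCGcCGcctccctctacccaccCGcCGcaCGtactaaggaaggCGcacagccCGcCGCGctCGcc
S100A11: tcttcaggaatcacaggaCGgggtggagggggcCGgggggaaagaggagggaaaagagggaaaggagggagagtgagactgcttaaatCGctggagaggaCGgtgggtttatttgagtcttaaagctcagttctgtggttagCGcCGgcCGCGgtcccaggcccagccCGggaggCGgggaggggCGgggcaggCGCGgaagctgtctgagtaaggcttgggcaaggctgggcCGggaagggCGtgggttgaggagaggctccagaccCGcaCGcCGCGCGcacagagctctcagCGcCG
S100A13: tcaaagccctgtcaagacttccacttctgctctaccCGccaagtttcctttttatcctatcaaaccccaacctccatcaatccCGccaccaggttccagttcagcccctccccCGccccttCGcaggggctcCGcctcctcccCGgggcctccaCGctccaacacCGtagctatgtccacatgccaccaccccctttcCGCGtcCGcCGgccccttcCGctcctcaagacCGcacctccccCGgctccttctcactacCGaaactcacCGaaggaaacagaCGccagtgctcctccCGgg
S100A16: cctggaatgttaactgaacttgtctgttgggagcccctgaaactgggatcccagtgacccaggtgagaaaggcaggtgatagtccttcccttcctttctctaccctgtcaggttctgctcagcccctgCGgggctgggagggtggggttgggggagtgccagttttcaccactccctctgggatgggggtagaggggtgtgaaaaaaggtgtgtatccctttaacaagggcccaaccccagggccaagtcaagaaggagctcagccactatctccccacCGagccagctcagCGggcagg

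Over 35116 promoter windows of this length the median was 14 CG pairs, with quartiles of 4 and 28. S100A10 has 32 CG pairs in its window and S100A6 has 31, more than the upper quartile. The S100A11 window holds 22 and the 3 S100A13 windows hold 19, 11 and 12. S100A16 has 3 in the window shown and 8 in its second one, and S100A2, S100A3, S100A4, S100A14 and S100P have between 4 and 8 per window. The genes that changed in MDA-MB-436 thus include windows both rich and poor in CG pairs. The word TATAAA, searched on both strands, was found in the windows of S100A4 and S100P and in the second of 3 windows of S100A13, against 11.5% of all windows. GGGCGG, searched in the same way, was found for S100A3, S100A6, S100A10, S100A11, S100A13 and S100A16, against 45.0% of all windows. TGANTCA was found for S100A2 and S100A3, against 7.71%. The word GGGCGG contains a CG pair, so the counts overlap. No chromatin data were analysed here, and a match is a description of the letters only.

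S100A10 was the only one of the 10 genes whose mRNA was called in both lines, and it was higher after siPHF19 in each. Of 11455 genes with an annotated 3′ UTR tested in both lines, 311 were called higher in both and 380 lower in both. A single member is too few to set against that share. The S100A10 protein is the small partner of annexin A2. The normalized count of S100A10, which is reads divided by a size factor for the library, was in MDA-MB-436 2799.7, 2364 and 2259 for siNT replicates 1 to 3 and 2996, 3234 and 3119.9 after siPHF19. Every treated library was above every control library, and siNT replicate 1 was the nearest to the treated ones. The mean went from 2474 ± 287 (SD, n = 3) to 3117 ± 119 (SD, n = 3), and the authors' deposited table put the log2 fold change at 0.33 (SE 0.09, DESeq2 Wald adjusted p 0.00234).

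In BoM-1833 the normalized count of S100A10 was 4293, 3883 and 3795 in siNT and 4426, 4805 and 4844 after siPHF19. The groups did not overlap here either, with siNT replicate 1 again closest to the treated libraries. The mean went from 3990.4 ± 266 to 4692 ± 231 (SD, n = 3), and the log2 fold change was 0.23 by the authors' deposited table (SE 0.07, DESeq2 Wald adjusted p 0.00864). The 2 responses were not found to differ: the difference, BoM-1833 minus MDA-MB-436, was -0.10 (95% interval -0.32 to 0.12, adjusted p 0.736, z test on the DESeq2 estimates). The call depended on single libraries. With DESeq2 on recovered reads, the adjusted p in MDA-MB-436 was 0.05001 without siNT replicate 2 and 0.0529 without siPHF19 replicate 2. In BoM-1833 it was 0.0927 without siNT replicate 2, 0.0765 without siNT replicate 3, 0.128 without siPHF19 replicate 2 and 0.136 without siPHF19 replicate 3. The estimate stayed above 0 throughout, at 0.20 to 0.29 in BoM-1833 and 0.27 to 0.43 in MDA-MB-436.

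**Figure D1:**
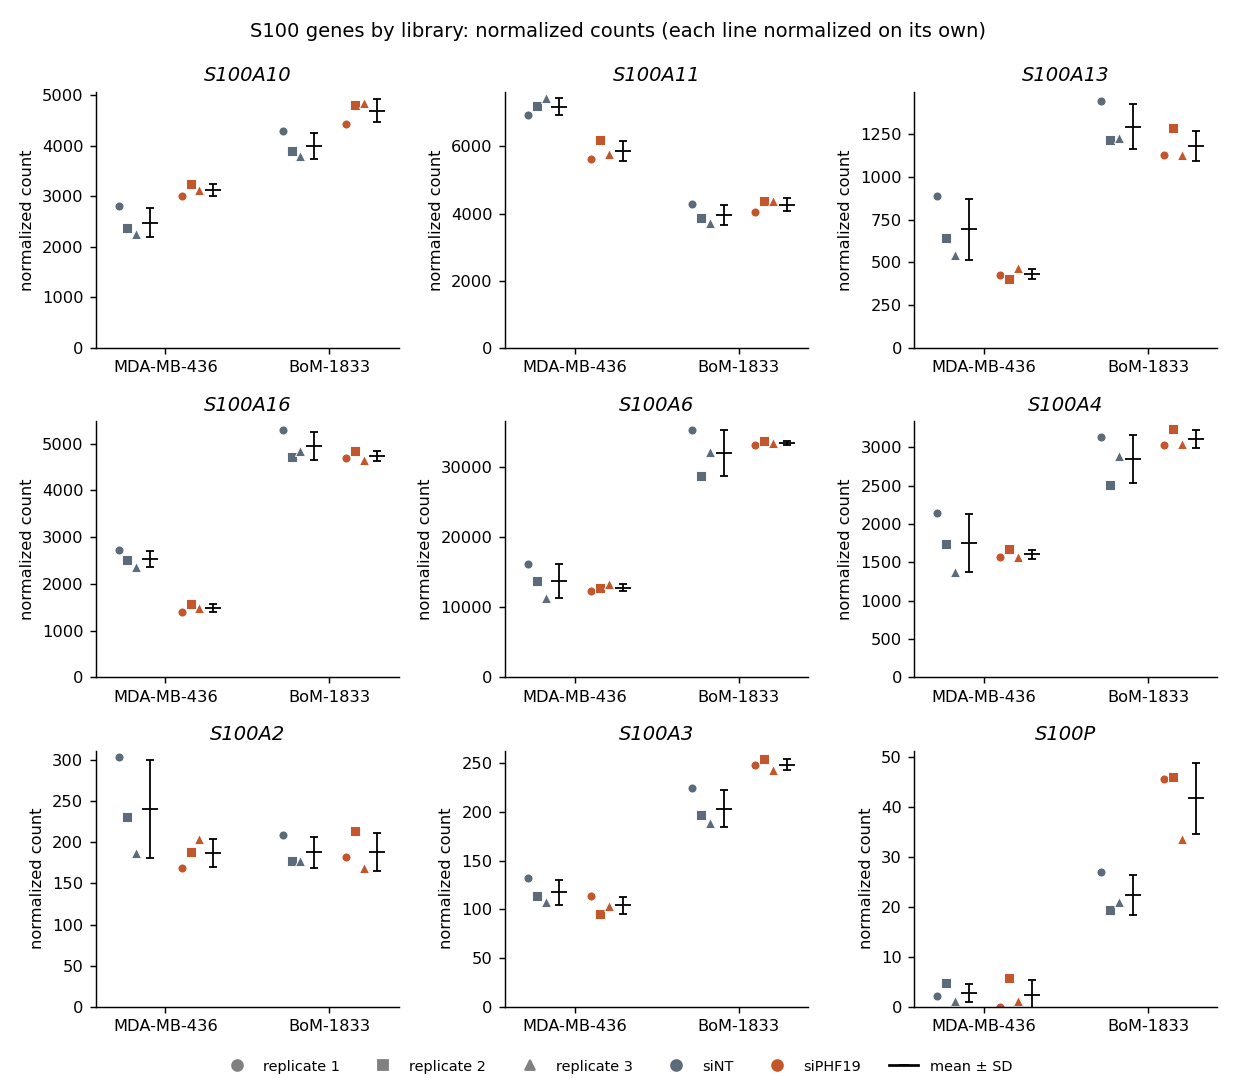
Normalized counts (vertical axis, from 0) of 9 S100 genes in every library, grey for siNT and orange for siPHF19, with the mean ± SD of 3 libraries beside each group. S100A10 is higher in all treated libraries of both lines, while S100A11, S100A13 and S100A16 are lower in all treated libraries of MDA-MB-436 only.

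The annexin partner moved the other way. ANXA2, the annexin that S100A10 holds at the membrane, had normalized counts of 28100.0, 24415 and 23382 in MDA-MB-436 siNT and of 9302, 9924 and 9147 after siPHF19. In BoM-1833 it had 30261, 27523 and 26542 in siNT and 15735, 16495 and 16274 after siPHF19. No treated library came near a control library in either line. The authors' deposited table gave log2 fold changes of -1.42 (SE 0.08, DESeq2 adjusted p 2.35e-64) and -0.80 (SE 0.06, DESeq2 Wald adjusted p 6.72e-37). The decrease was larger in MDA-MB-436, by 0.62 on the log2 scale (95% interval 0.42 to 0.82, adjusted p 2.42e-07, z test on the DESeq2 estimates). The word AAACTG was counted in the longest annotated 3′ UTR of each gene, and was found in 73.9% of 380 genes lower in both lines, against 47.9% of 11455 tested in both and 37.6% of 311 higher in both. The median 3′ UTR was 1852.5, 1427 and 1852 bases long in these sets. The sets come from the calls of these same data and the choice of the word is not stated, so the shares are a description only. The 3′ UTR of ANXA2 holds the word 1 time and so does that of S100A3, while those of the other 9 members, S100A10, S100A11, S100A13 and S100A16 among them, hold it 0 times. The part of this word in the decrease of ANXA2, and so in the ratio to S100A10, was not tested.

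Per kilobase of merged exon, the ratio of S100A10 to ANXA2 reads in MDA-MB-436 was 0.570, 0.554 and 0.552 in siNT and 1.84, 1.86 and 1.95 after siPHF19. In BoM-1833 it was 0.811, 0.807 and 0.818 in siNT and 1.61, 1.67 and 1.70 after siPHF19. The SD over the control libraries was 0.0097 and 0.0054, and the ratio was 3.37-fold higher after siPHF19 in MDA-MB-436, against 2.04-fold in BoM-1833. By an exact 2-sided permutation test p was 0.1 in both lines, which is the lowest p possible with 3 libraries on each side. The ratio itself depends on the gene length used. With the longest transcript of each gene it was 0.284 to 0.292 in MDA-MB-436 siNT and 0.945 to 1.00 after siPHF19, while the fold change is the same by construction. Of the 3 named pseudogenes of ANXA2, ANXA2P1 had normalized counts of at most 19.1, ANXA2P3 of at most 1.22, and ANXA2P2 was listed at 0 in every library.

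**Figure D2:**
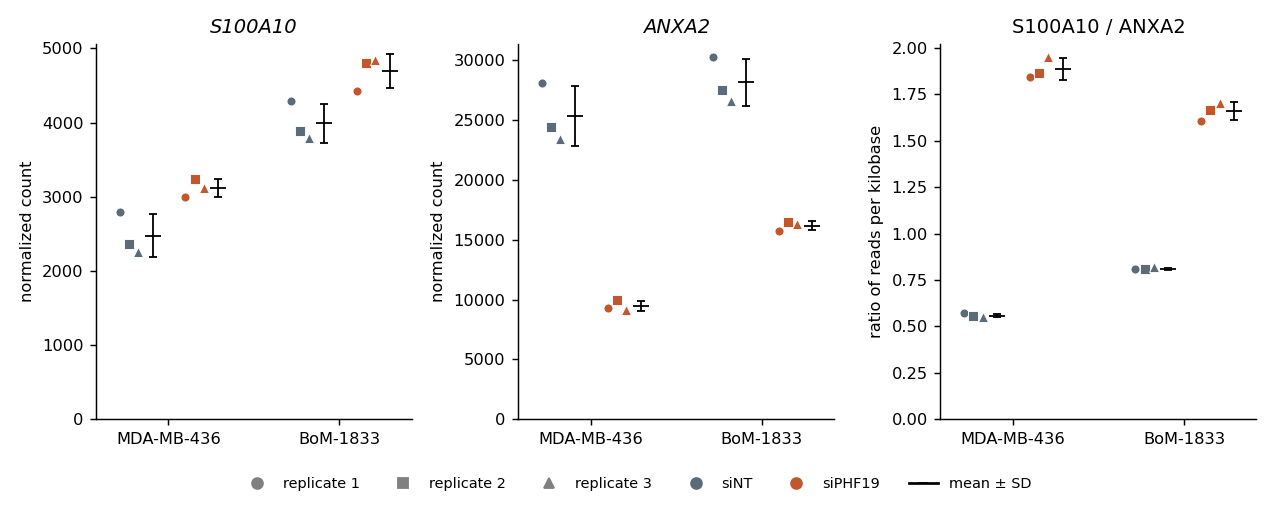
Normalized counts of S100A10 and ANXA2 and the ratio of their reads per kilobase (vertical axes, from 0) by library, with the mean ± SD of 3 libraries. S100A10 rose and ANXA2 fell in both lines; the ratio was 3.37-fold higher after siPHF19 in MDA-MB-436, against 2.04-fold in BoM-1833.

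In MDA-MB-436, 3 genes fell after siPHF19: S100A16, S100A13 and S100A11. Together with S100A10 this made 4 called of 8 members tested, 1 higher and 3 lower. Over all 14243 genes tested in this line, 22.1% were called, 10.5% higher and 11.5% lower. The median log2 fold change was -0.24 over the 8 members and -0.0022 over all genes tested. The other 2 members, S100A14 and S100P, were low, have no deposited adjusted p in this line and count as not tested.

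S100A16, a broadly expressed member whose first EF-hand binds calcium poorly if at all, fell most. Its normalized count in MDA-MB-436 was 2722, 2507 and 2368 in siNT and 1391, 1567 and 1478 after siPHF19. The lowest control library was far above the highest treated one. The mean went from 2532 ± 179 to 1479 ± 88.0 (SD, n = 3), or 58.4% of siNT, and the authors' deposited table put the log2 fold change at -0.78 (SE 0.08, DESeq2 Wald adjusted p 3.75e-18).

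S100A13, which helps FGF1 and IL1A leave the cell by a route outside the usual secretory pathway, had 889.6, 644 and 547 in MDA-MB-436 siNT and 425, 405 and 467 after siPHF19. Again all treated libraries were below all controls, but siNT replicate 1 stood well above the other controls. The mean was 693 ± 177 in siNT and 432 ± 31.5 (SD, n = 3) after siPHF19, and the log2 fold change was -0.68 by the authors' deposited table (SE 0.16, DESeq2 Wald adjusted p 2.50e-04). Without siNT replicate 1 the estimate of DESeq2 on recovered reads was -0.47 (adjusted p 0.00147).

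S100A11, a partner of annexin A1, fell least of the 3, from 6937, 7189 and 7428 in siNT to 5635, 6184 and 5762 after siPHF19. The groups did not overlap, and siNT replicate 1 was the lowest of the controls for this gene, unlike the other members. The mean was 7184 ± 246 in siNT and 5861 ± 287 (SD, n = 3) after siPHF19, and the authors' deposited table put the log2 fold change at -0.29 (SE 0.07, DESeq2 Wald adjusted p 1.38e-04). These 3 decreases stayed called in each fit without 1 library, with log2 fold changes of -0.82 to -0.72 for S100A16, -0.82 to -0.47 for S100A13 and -0.33 to -0.26 for S100A11.

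None of these 3 genes was called in BoM-1833. S100A16 had 5281, 4707 and 4841 in siNT and 4701, 4849 and 4655 after siPHF19, and the log2 fold change was -0.06 by the authors' deposited table (SE 0.06, DESeq2 Wald adjusted p 0.656). S100A13 had 1446, 1215 and 1227 in siNT and 1128, 1287 and 1132 after siPHF19 (log2 fold change -0.13, SE 0.09, adjusted p 0.434, DESeq2, in the authors' deposited table). S100A11 had 4293, 3853 and 3728 in siNT and 4038, 4382 and 4374 after siPHF19 (log2 fold change 0.11, SE 0.07, adjusted p 0.405, DESeq2, in the authors' deposited table). For all 3 the groups overlapped, with siNT replicate 1 the highest control.

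The response to siPHF19 was compared between the lines by z on the deposited DESeq2 estimates. This was done over 12290 genes tested in both, of which 4.89% differed. The log2 fold change of S100A16 was 0.71 higher in BoM-1833 than in MDA-MB-436 (95% interval 0.51 to 0.92, adjusted p 4.53e-09, z test on the DESeq2 estimates). For S100A11 the difference was 0.40 (95% interval 0.21 to 0.59, adjusted p 0.00174, z test on the DESeq2 estimates). For S100A13 it was 0.55 (95% interval 0.19 to 0.91, adjusted p 0.0553), which misses the threshold, so its response was not shown to differ between the lines. It passed without MDA-MB-436 siNT replicate 3 (0.69, adjusted p 0.00140, z test with DESeq2) and without BoM-1833 siNT replicate 1 (0.64, adjusted p 0.00959). Of the 8 members tested in both lines, 2 differed between the lines, and 5 did without MDA-MB-436 siNT replicate 3. The share of all genes that differed without that library was not counted.

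**Figure D3:**
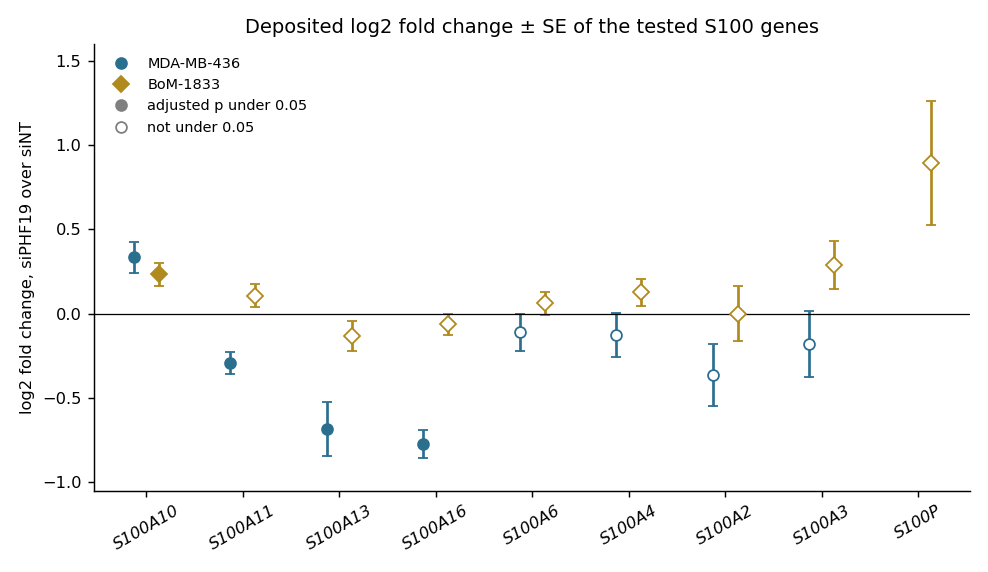
Deposited log2 fold change of siPHF19 over siNT with its SE (vertical axis) for each S100 gene tested, in MDA-MB-436 (blue circles) and BoM-1833 (ochre diamonds). Filled symbols passed an adjusted p of 0.05; S100A10 is filled in both lines and S100A11, S100A13 and S100A16 in MDA-MB-436 only.

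In BoM-1833, S100A10 was the 1 member called of 9 tested, against 10.9% of all 12906 genes tested in that line, 5.21% higher and 5.72% lower. The median log2 fold change was 0.11 over the 9 members and -0.0035 over all genes tested. With DESeq2 on recovered reads, no member was called without siNT replicate 2, siNT replicate 3, siPHF19 replicate 2 or siPHF19 replicate 3. Without siNT replicate 1, 4 were called, all higher: S100A4, S100A6, S100A10 and S100A11. Calls over all genes in these fits were not counted.

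S100A6, or calcyclin, which binds the ubiquitin ligase adaptor CACYBP, was the most abundant member and was called in neither line. In MDA-MB-436 it had normalized counts of 16212, 13715 and 11359 in siNT and 12321, 12671 and 13265 after siPHF19. In BoM-1833 it had 35207, 28665 and 32149 in siNT and 33073, 33701 and 33463 after siPHF19. In both lines the treated libraries lay inside the range of the controls. The authors' deposited table gave log2 fold changes of -0.11 (adjusted p 0.530) and 0.06 (adjusted p 0.693, DESeq2 Wald test), with 95% intervals of -0.33 to 0.11 and -0.07 to 0.20.

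S100A4, or metastasin, which binds the tail of non-muscle myosin II and is the member most tied to metastasis, was not called either. Its normalized count in MDA-MB-436 was 2142, 1738 and 1375 in siNT and 1574, 1672 and 1562 after siPHF19. In BoM-1833 it was 3130.0, 2510.2 and 2888 in siNT and 3033, 3244 and 3038 after siPHF19. The groups overlapped in both lines, and the controls were spread more widely than the treated libraries. The authors' deposited table gave log2 fold changes of -0.13 (95% interval -0.39 to 0.13, adjusted p 0.544) and 0.13 (95% interval -0.03 to 0.28, adjusted p 0.379, DESeq2 Wald test).

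S100A2, an epithelial member that binds p53, had 305, 231 and 187 in MDA-MB-436 siNT and 169, 189 and 204 after siPHF19. In BoM-1833 it had 209.6, 177.1 and 177.4 in siNT and 182, 213 and 169 after siPHF19. The groups overlapped in both lines. By the authors' deposited table the log2 fold changes were -0.36 (95% interval -0.73 to -0.00055, adjusted p 0.153) and -0.0014 (95% interval -0.32 to 0.32, adjusted p 0.997, DESeq2 Wald test). Without MDA-MB-436 siNT replicate 3, S100A2, S100A4 and S100A6 were all called lower in that line by DESeq2 on recovered reads, with log2 fold changes of -0.51, -0.27 and -0.23 and adjusted p-values of 0.0226, 0.0180 and 0.00949. This brought the count to 7 of the members tested. How many of all genes were called in that same fit was not counted, so the 7 have no background beside them. Without siNT replicate 1 of that line, the estimates of S100A4 and S100A6 were 0.04 and 0.02.

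S100A3, known from the hair cuticle, had 132, 113 and 108 in MDA-MB-436 siNT and 113, 95.3 and 104 after siPHF19. In BoM-1833 it had 225, 196 and 189 in siNT and 248, 255 and 243 after siPHF19, and there all treated libraries were above all controls. Neither line passed: the authors' deposited table gave log2 fold changes of -0.18 (SE 0.19, DESeq2 adjusted p 0.566) and 0.29 (SE 0.14, DESeq2 Wald adjusted p 0.223).

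S100P, first found in placenta and a partner of ezrin and IQGAP1, was low. Normalized counts in MDA-MB-436 were 2.18, 4.65 and 1.22 for siNT and 0, 5.80 and 1.06 after siPHF19, and it was not tested. In BoM-1833 it was 27.0, 19.4 and 21.0 in siNT and 45.7, 46.0 and 33.6 after siPHF19, resting on 21 to 46 reads per library. The groups did not overlap in BoM-1833. The authors' deposited table gave a log2 fold change of 0.89 there (95% interval 0.18 to 1.61, adjusted p 0.105, DESeq2 Wald test), which misses the threshold, while edgeR on recovered reads gave an adjusted p of 0.0422.

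S100A14, a member of lining epithelia, was close to 0 in both lines. It had 3.27, 0 and 0 in MDA-MB-436 siNT and 0, 0 and 2.11 after siPHF19. In BoM-1833 it had 0.794, 0 and 0.954 in siNT and 2.98, 2.36 and 1.20 after siPHF19, from 8 reads in the 6 libraries. No library held more than 3 reads. S100A14 has no deposited adjusted p in either line and counts as not tested. On the chromosome it lies between S100A16 and S100A13.

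Library to library, the members moved together among the controls. In MDA-MB-436, 8 members had a mean normalized count of at least 100, and 7 of them were highest in siNT replicate 1 and lowest in siNT replicate 3. Their median deviation from the mean of the group, on the log2(normalized count + 1) scale, was 0.22, -0.02 and -0.19 across siNT replicates 1 to 3, against -0.05, 0.04 and 0.0014 across the treated ones. In BoM-1833 all 8 were highest in siNT replicate 1, with median deviations of 0.14, -0.08 and -0.07 in siNT replicates 1 to 3.

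Short genes in general did the same. Among 549 genes of MDA-MB-436 at the same count minimum whose longest annotated transcript is under 1300 bases, the median deviation was 0.16, -0.01 and -0.16 in siNT replicates 1 to 3. It was 0.15, -0.07 and -0.08 over 545 such genes of BoM-1833. Longer genes had medians between -0.02 and 0.01 in every library. Of the 8 members, S100A13 alone has a transcript of 1300 bases or more. The median log2 fold change of the tested short genes was -0.09 in MDA-MB-436, against 0.03 in BoM-1833, in the direction of the members' medians. The part of transcript length in the S100 results was not tested.

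**Figure D4:**
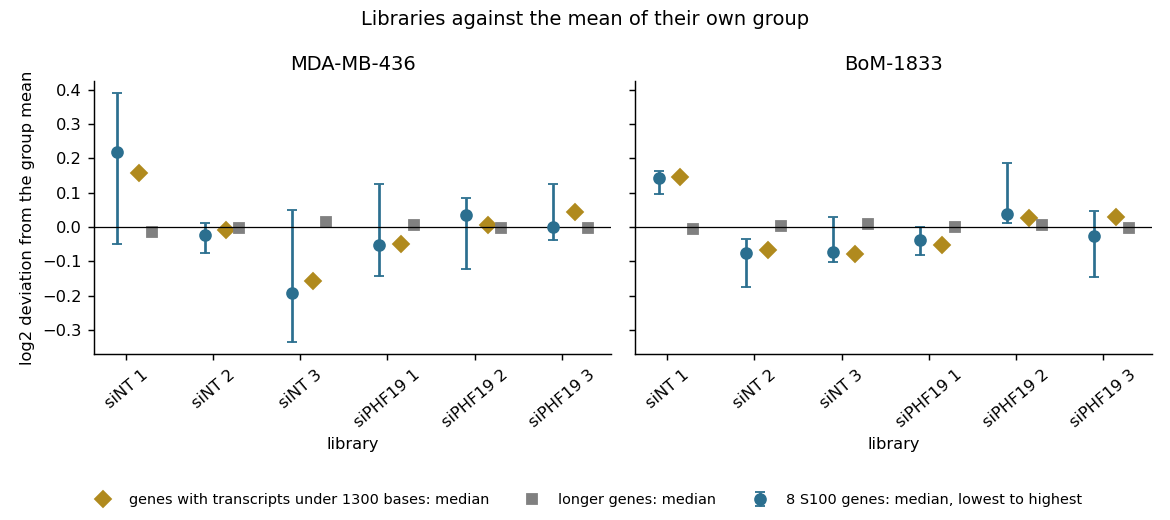
Median log2 deviation of each library from the mean of its own group (vertical axis) for 8 S100 genes, with bars from the lowest to the highest gene, for genes with transcripts under 1300 bases and for longer genes. The medians of the S100 genes and of the short genes lie above 0 in siNT replicate 1 of both lines and below 0 in siNT replicate 3. Those of longer genes stay near 0.

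Levels were compared between genes per length, as reads per kilobase of merged exon, scaled to the reads in genes of the library (RPKM). S100A6 was first in every group, with means of 754 ± 121 in MDA-MB-436 siNT and 711 ± 25.1 after siPHF19, and of 1967 ± 182 and 2080.4 ± 11.8 in BoM-1833 (SD, n = 3). S100A11 was second in every group, with 563 ± 27.9 and 467 ± 23.0 in MDA-MB-436 and 348 ± 24.5 and 379 ± 16.3 in BoM-1833. The ranges of these 2 did not touch in any group, nor did that of S100A11 touch the range of the next gene.

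Below them lay S100A4, S100A10 and S100A16. In MDA-MB-436 siNT they had mean RPKM of 90.8, 85.3 and 79.3, with ranges that overlap from each to the next. After siPHF19 the order in MDA-MB-436 was S100A10 at 109, S100A4 at 84.6 and S100A16 at 47.1, and these ranges did not overlap. In BoM-1833 siNT they lay at 165 (S100A4), 154 (S100A10) and 173 (S100A16), again overlapping from each to the next. After siPHF19 in BoM-1833, S100A10 at 184 and S100A4 at 183 overlapped and S100A16 lay below them at 168; with the length of the longest transcript in place of merged exons, S100A16 came before both.

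S100A13 was sixth in each group, with mean RPKM from 10.6 to 34.9. S100A2 and S100A3 followed with 5.90 to 15.7, S100A2 above S100A3 in MDA-MB-436 with overlapping ranges and below it in BoM-1833 without overlap. S100P had means of 0.0966 to 1.97 and S100A14 of 0.0271 to 0.103.

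**Figure D5:**
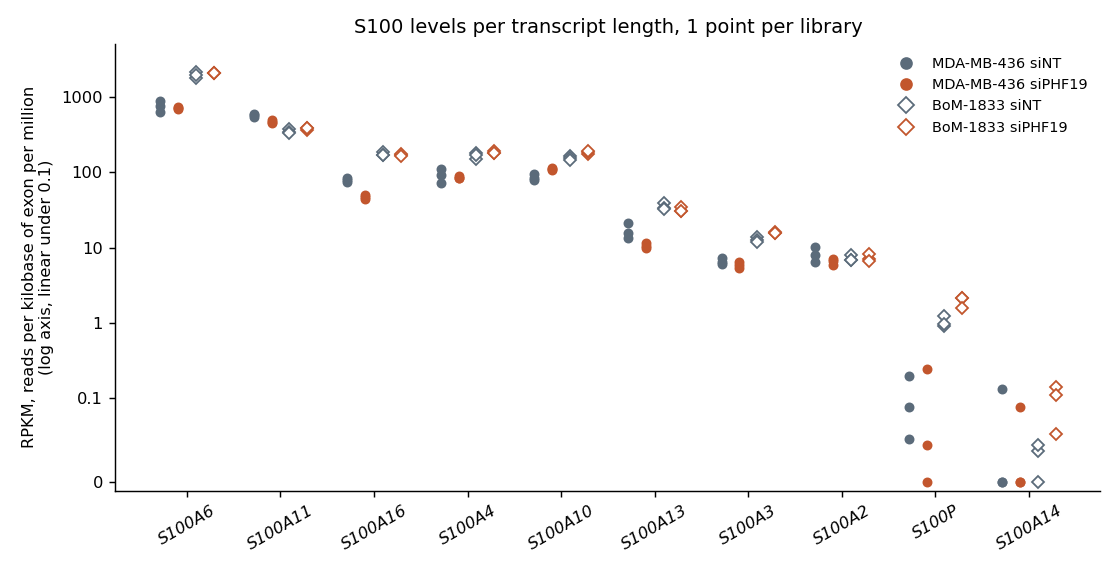
Levels in RPKM (vertical log axis, linear under 0.1) of the 10 S100 genes, 1 point per library, filled circles for MDA-MB-436 and open diamonds for BoM-1833. S100A6 is on top in every group and S100A14 is at the bottom by its mean.

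Between the lines, levels are a description only, since each line was normalized and deposited on its own. By the reads of a gene scaled to all reads in genes (RPM), 7 members were higher in BoM-1833 siNT than in MDA-MB-436 siNT without overlap: S100A6 2.61-fold, S100A16 2.19-fold, S100A13 2.10-fold, S100A3 1.94-fold, S100A4 1.82-fold, S100A10 1.81-fold and, from few reads, S100P 9.35-fold. S100A11 went the other way and was 1.62-fold higher in MDA-MB-436 siNT. S100A2 and S100A14 overlapped. The share of all genes that lie apart between the lines in this way was not counted. The 7 are therefore not read as a trait of the family. The 10 genes together took 1531 ± 150 RPM in MDA-MB-436 siNT and 1382 ± 40.9 after siPHF19, against 2951 ± 238 and 3136 ± 44.6 in BoM-1833 (SD, n = 3). S100A6 alone made up 44.3% to 51.1% of these reads in the MDA-MB-436 libraries and 63.4% to 65.6% in the BoM-1833 libraries.

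The other 11 S100 genes in the tables were low or silent, and none was called. S100A8 and S100A9, the calprotectin pair of myeloid cells, were found in MDA-MB-436 and listed at 0 in every BoM-1833 library. S100A9 had 247, 262 and 192 in MDA-MB-436 siNT and 177, 272 and 181 after siPHF19, with overlapping groups (log2 fold change -0.15, adjusted p 0.634, DESeq2, in the authors' deposited table). S100A8 had 44.8, 41.1 and 20.8 in siNT and 43.6, 38.1 and 22.2 after siPHF19 (log2 fold change -0.05, adjusted p 0.948, DESeq2, in the authors' deposited table). S100A5 had 57.2, 44.3 and 30.5 in BoM-1833 siNT and 44.7, 34.2 and 45.6 after siPHF19 (log2 fold change -0.09, adjusted p 0.929, DESeq2, in the authors' deposited table), and at most 1.22 in MDA-MB-436. S100A1, S100A7, S100A7A, S100A7L2, S100A12, S100B, S100G and S100Z had means under 10 in both lines. Of 8 skin-barrier genes of the same stretch, the fused-type S100 genes FLG, FLG2, HRNR, RPTN, TCHH, TCHHL1 and CRNN with their neighbour CRCT1, which codes for no S100 domain, 1 was tested in MDA-MB-436, against 0 in BoM-1833. It was TCHH, named after its values were seen, and it was not called (log2 fold change -0.20, adjusted p 0.585, DESeq2, in the authors' deposited table).

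Receptors, annexins and other known partners of S100 proteins were read from a list. Of its 53 genes, 52 were found. In MDA-MB-436, 44 were tested, 4 were called higher and 12 lower, with a median log2 fold change of -0.14. In BoM-1833, 43 were tested, 1 was called higher and 9 lower, with a median of -0.03. Read against the 22.1% and 10.9% called over all genes, the shares called were 36.4% and 23.3%.

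Beside ANXA2, partners that fell in both lines include MYH10, a non-muscle myosin heavy chain of the kind S100A4 binds. It had 5766, 5925 and 5884 in MDA-MB-436 siNT and 4351, 4375 and 4131 after siPHF19, and 1003, 1107 and 1066 in BoM-1833 siNT against 788, 755 and 920.2 after siPHF19. No treated library reached a control. The authors' deposited table gave log2 fold changes of -0.45 (adjusted p 4.19e-12) and -0.37 (adjusted p 0.00162, DESeq2 Wald test), the latter at an adjusted p of 0.0664 without BoM-1833 siPHF19 replicate 2. IL1A, a cytokine carried out of the cell with S100A13, fell in both lines too. In the authors' deposited table the log2 fold changes of IL1A were -0.56 (adjusted p 5.16e-14) and -1.71 (adjusted p 1.12e-04, DESeq2 Wald test), from means of 4714 and 54.4 in siNT, and it fell more in BoM-1833 (difference -1.15, adjusted p 0.0481, z test on the DESeq2 estimates).

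TPM1, a tropomyosin of actin filaments, rose in both lines, from 2184, 2024 and 1816 to 3109, 3035 and 3163 in MDA-MB-436 and from 1209.8, 1092 and 1109 to 1378, 1428 and 1521 in BoM-1833. The groups did not overlap in either line. The authors' deposited table gave log2 fold changes of 0.63 (adjusted p 1.47e-12) and 0.34 (adjusted p 3.99e-04, DESeq2 Wald test).

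Other partners were called in 1 line only. MCAM, a surface receptor of S100A8 and S100A9, had a log2 fold change of -0.75 in MDA-MB-436 (DESeq2 adjusted p 2.43e-12) against -0.14 in BoM-1833 (adjusted p 0.342, DESeq2, the authors' deposited table), and the lines differed by 0.62 (adjusted p 1.58e-04, z test on the DESeq2 estimates). FKBP4, a chaperone partner of S100A6, had -0.38 (adjusted p 5.57e-08) and -0.14 (adjusted p 0.152, DESeq2, the authors' deposited table), a difference that was not called (0.24, adjusted p 0.114, z test on the DESeq2 estimates). CCN1, a matrix protein gene, had 0.49 (adjusted p 3.46e-08) and 0.11 (adjusted p 0.388, DESeq2, the authors' deposited table), with a difference of -0.38 (adjusted p 0.0156, z test on the DESeq2 estimates). PPFIBP1, the liprin beta that S100A4 binds, went the other way about: its log2 fold change was -0.18 in MDA-MB-436 (DESeq2 adjusted p 0.255) against -0.76 in BoM-1833 (adjusted p 3.71e-14, DESeq2, the authors' deposited table), a difference of -0.58 (adjusted p 0.00373, z test on the DESeq2 estimates). Without MDA-MB-436 siNT replicate 1, PPFIBP1 was called lower in that line too (adjusted p 0.0251, DESeq2 on recovered reads). AGER, the receptor for released S100 proteins, had means of only 30.6 and 25.05 in siNT and was called in neither line.

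The stretch of chromosome 1 around the family was read for other genes. It was taken from 300 kb before the start of S100A10 to 300 kb beyond that of S100A1, and 83 of its 133 annotated genes were in the tables, 43 of them at 0 in all 12 libraries. In MDA-MB-436, 23 were tested, 2 were called higher and 5 lower, or 30.4% against 22.1% of all genes tested. In BoM-1833, 20 were tested, 1 was called higher and 1 lower, or 10.0% against 10.9%. Without MDA-MB-436 siNT replicate 3 the count in that line was 11, and without BoM-1833 siNT replicate 1 that line had 5. For these 2 fits the calls over all genes were not counted. Of 19 genes of the stretch tested in both lines, only MRPL9 and S100A10 were called in both. Of 11455 genes with an annotated 3′ UTR tested in both lines, 380 were called lower in both and 311 higher in both. MRPL9, which codes for a protein of the mitochondrial ribosome, had log2 fold changes of -0.75 (SE 0.08, DESeq2 adjusted p 2.24e-17) and -0.45 (SE 0.11, DESeq2 adjusted p 8.95e-04) in the authors' deposited table, against S100A10's 0.33 and 0.23. With the S100 genes left out, 3 of 13 tested genes of the stretch were called in MDA-MB-436 (23.1%) and 1 of 11 in BoM-1833 (9.09%). S100A10 and S100A11, next to each other among the genes tested and both on the minus strand, were called in opposite directions in MDA-MB-436.

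The genes whose pattern was most like that of S100A10 were sought by Pearson's r of log2(normalized count + 1), centred within each line, over 12 libraries and 9835 genes with a mean of at least 100 in both lines. Among the closest were DNAJC1 and OSTC, a chaperone partner and an oligosaccharyltransferase subunit of the endoplasmic reticulum, with r of 0.97 for both. The 12 points share the treatment and the scaling of each table, and r is a description. Both were called higher in MDA-MB-436, with log2 fold changes of 0.28 and 0.24 in the authors' deposited table, and neither in BoM-1833 (adjusted p 0.107 and 0.205, DESeq2).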

How the data were processed

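Per the submitters' processing notes, reads were processed with STAR, RSEM 1.3.1 and DESeq2 1.46.0 on hg38; the gene annotation, and whether counting used strand, are not given in the sources used here. Each deposited library column holds a signal: reads over that library's size factor. The authors also deposited fold changes on the log2 scale with standard errors, the Wald statistic, a score, and p-values with their adjusted form. A gene was called at a deposited adjusted p under 0.05; genes without one were not tested. Whole reads were recovered from the steps of each column (100% of values whole) and used for levels per length (GENCODE 29 exons) and, with DESeq2 1.42.0 and edgeR 4.0.16, for alternatives. Differences between lines were tested by z with Benjamini-Hochberg adjustment over 12290 genes. Reads of MDA-MB-436 and BoM-1833 were simulated (29972 genes). In each, 200 genes with a mean of at least 100 were changed by 1 on the log2 scale. DESeq2 found 97.0% in each (18 and 14 false calls) and edgeR 98.5% and 98.0% (12 and 21 false calls). The z test found 89.3% of 385 such genes (16 false calls). These rates do not cover smaller changes or lower counts. Replicate numbers did not pair libraries (6 correlations, -0.31 to 0.04). The members and lists were chosen with earlier results of these data known. Named beyond the 10 genes are PHF19, other S100 genes with a mean of at least 10, the 8 called partners with the largest Wald statistic, genes of the chromosome 1 stretch called in both lines, and the 3 genes most like S100A10, of which 1 is not reported here; AGER, markers and pseudogenes are given as context. The 3′ UTRs searched for AAACTG are from GENCODE 29. SEPTIN2 was not matched, and CCN1 is listed under an older symbol.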

Additional observations from a re-analysis of the deposited data

Results flagged for a closer look

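The response to siPHF19 differed between the lines for these genes by the z test on the deposited DESeq2 estimates, each value being the log2 fold change in BoM-1833 minus that in MDA-MB-436. Among S100 genes these were S100A11 (0.40) and S100A16 (0.71). Among the named partners they were ANXA2 (0.62), MCAM (0.62), PPFIBP1 (-0.58), CCN1 (-0.38) and IL1A (-1.15). S100A16, MCAM and ANXA2 had the larger decrease in MDA-MB-436, and PPFIBP1 and IL1A in BoM-1833.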

How the results depend on the processing

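In MDA-MB-436 the count of S100 genes called stayed at 4 under edgeR, the DESeq2 rerun, both other scalings and both other filters; a minimum absolute log2 fold change of 0.5 left 2, and fits without 1 library gave 3 to 7. In BoM-1833 the count of 1 was 2 with edgeR, 0 with the minimum fold, 1 under the other scalings and filters, and 0 to 4 without 1 library. The count of genes differing between lines, 2, was 2 to 5 without 1 library and 2 with either interaction term. Estimates near 0 changed sign: S100A2 in BoM-1833 was 0.017 with total-read scaling and -0.0998 to 0.087 without 1 library, S100A6 there was -0.013 to 0.137, and in MDA-MB-436 S100A4 was -0.272 to 0.039 and S100A6 -0.230 to 0.025; the cause was not tested. With the replicate number as a replicate block, 4 S100 genes were called in the MDA-MB-436 fit, 0 in that of BoM-1833, where S100A10 had 0.23 (DESeq2 adjusted p 0.131), and 2 between lines, while calls over all genes went from 3142 to 1609 and from 1410 to 610; same-numbered libraries did not deviate together. The partner counts over all alternatives were 11 to 18 for MDA-MB-436 and 8 to 12 for BoM-1833. Calls over all genes were not counted for the fits without 1 library. Depth limits S100P and S100A14, whose reads were few.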
